A study of Mus musculus with 12 samples.

Results

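The 9 genes described here encode surface proteins by which mouse hematopoietic stem cells (HSCs) and multipotent progenitors are sorted: Ly6a, Kit, Slamf1, Cd48, Cd34, Flt3, Procr, Esam and Tek. They were taken by name from a list of 10 names, in which Cd150 is a synonym of Slamf1 and no separate entry. They are 9 of the 46102 genes with a value in the series and 9 of the 10072 genes tested, so every one passed the filter of at least 1 RPKM (reads per kilobase of transcript, scaled to the library's total of reads) in at least 3 libraries.

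RNA from 100 sorted cells was measured per library in a mouse model of chronic myeloid leukemia (CML). C57BL/6 mice carried the G0 marker (G0M), a fusion of mVenus with a mutant form of p27 (Cdkn1b) that accumulates in quiescent cells, as a Cre-inducible transgene in the Rosa26 locus switched on by Vav1-Cre, which acts in blood cells. Bone marrow cells of 5FU-treated G0M mice were transduced with a retrovirus encoding BCR-ABL1 and GFP and were transplanted, with helper marrow cells, into lethally irradiated C57BL/6 recipients, so the host retained its own stroma and the helper cells. The recipients received vehicle or imatinib, which inhibits the kinase of BCR-ABL1, by oral gavage once a day, and the mice of the study were females of 6 to 12 weeks of age. All 4 groups were BCR-ABL1+ Lin- Sca-1+ c-Kit+ CD27+ cells of bone marrow and spleen, so the proteins of Ly6a (Sca-1), Kit (c-Kit) and Cd27 were gates shared by every library. DP cells (vehicle) and IMDP cells (imatinib) were G0M+, SP cells (vehicle) and IMSP cells (imatinib) were G0M-, and each group had 3 libraries. No source used here says whether the 3 libraries of a group came from separate mice, so the p-values measure only the spread between these libraries, which may be technical.

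Long-term HSCs of the mouse are found among Lin- Sca-1+ c-Kit+ cells that carry CD150 (Slamf1) and lack CD48, whereas multipotent progenitors gain CD48 and part of them gain FLT3. The protein C receptor EPCR (Procr), the junction adhesion molecule ESAM and the angiopoietin receptor TIE2 (Tek) mark HSCs within the same gate, and CD34 is low on adult long-term HSCs of the mouse and present on progenitors. These rules were set on protein at the surface of normal cells, whereas the values here are RNA of leukemic cells. In bulk samples, fewer cells of a type and less RNA per cell cannot be told apart.

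Promoter sequence is given for 3 genes that stood for different patterns below: Procr, which was higher in G0M+ cells, Slamf1, which was high in the same libraries as Esam and Tek, and Flt3, which was lower in those libraries than in the other imatinib libraries. Each line holds the 150 bases before the gene's start in RefSeq (GRCm38.p6), 5′ to 3′ on the gene's own strand: Procr at chr2:155750967-155751116 (plus), Slamf1 at chr1:171766977-171767126 (plus) and Flt3 at chr5:147400490-147400639 (minus). Capitals mark matches, on either strand, to GATAA (GATA factors), TGTGGT (RUNX), GGAAG (ETS, whose reverse complement is CTTCC) and CAGNTG (E-box), and no match overlapped another.
Procr: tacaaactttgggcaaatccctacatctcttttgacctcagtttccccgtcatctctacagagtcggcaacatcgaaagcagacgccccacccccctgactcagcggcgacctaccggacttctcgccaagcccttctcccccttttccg
Slamf1: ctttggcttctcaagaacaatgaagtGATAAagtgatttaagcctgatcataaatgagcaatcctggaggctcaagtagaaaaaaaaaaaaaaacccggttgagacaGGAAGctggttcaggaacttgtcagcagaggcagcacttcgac
Flt3: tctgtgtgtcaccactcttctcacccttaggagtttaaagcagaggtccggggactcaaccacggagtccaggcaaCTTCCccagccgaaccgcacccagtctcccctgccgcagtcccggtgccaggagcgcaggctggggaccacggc
The Slamf1 window held 1 GATA and 1 ETS match, the Flt3 window 1 ETS match, and the Procr window none of these letters. Of 32851 promoter windows of the same length, 13.3% held the GATA letters, 8.40% the RUNX, 47.7% the ETS and 30.1% the E-box letters. A match describes the letters and is no site of binding. The table of promoters had entries for 7 of the 9 genes, and those of Ly6a and Esam are missing.

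The genes lie apart in the genome except for Slamf1 (chr1:171767127-171801184) and Cd48 (chr1:171682009-171705258), members of the SLAM family that lie close together on the plus strand (GRCm38, GENCODE M21). Cd34 is also on chromosome 1 (chr1:194938819-194961279), Kit and Flt3 are on chromosome 5 (chr5:75574916-75656722, plus, and chr5:147330741-147400489, minus), Tek on chromosome 4 (chr4:94739289-94874976), Esam on chromosome 9 (chr9:37528078-37538319), Procr on chromosome 2 (chr2:155751117-155755471) and Ly6a on chromosome 15 (chr15:74994877-74998031, minus). Each is a protein-coding gene. The length behind an RPKM value could differ from the gene's exon bases in GENCODE M21, at 2621 against 7290 for Cd34 and 1529 against 1189 for Cd48. It was near them for Tek, at 4714 against 4712. Ly6a belongs to a family of near copies, and 31.9% of the 31-base words of its transcripts occur in transcripts of other genes, 21.9% in Ly6c1, 8.42% in Ly6i and 6.67% in Ly6c2. How the counting treated such reads is not given in the sources used here, so the Ly6a value is uncertain to that extent. Ly6c1 was at 0 to 0.209 RPKM and Ly6i at 0 to 0.193 RPKM in the 12 libraries. Ly6c2, a marker of monocytes, was at 1.15 to 14.2 RPKM in IMDP and 10.4 to 131 RPKM in IMSP libraries. It was at 2.87 to 65.8 RPKM in DP and 11.7 to 89.5 RPKM in SP libraries, and the ranges overlapped under both treatments. The part of shared reads in the Ly6a differences was not tested.

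The libraries rested on totals of 11.4 to 20.6 M reads, recovered from the steps of the RPKM values, and 1 read per kilobase was worth 0.0486 to 0.0880 RPKM. Kit, Cd48 and Cd34 rested on 360 to 3419 reads per library, whereas the lowest values rested on few: 5 reads for Slamf1, 6 for Procr and 11 for Tek. Cd27, the remaining gate, was at 13.7 RPKM ± 0.851 in SP to 17.4 RPKM ± 4.73 in IMDP cells (SD, n = 3). Mki67, a gene of cycling cells, was at 14.7 RPKM ± 5.70 in DP and 54.2 RPKM ± 3.42 in SP cells, and at 8.16 RPKM ± 1.67 in IMDP and 61.1 RPKM ± 8.39 in IMSP cells (SD, n = 3), so the G0M+ libraries were lower in it under both treatments. On the log2(RPKM + 0.1) scale that every fold change below uses, its population difference was -2.42 (SE 0.16, adjusted p = 6.12e-06, limma with Benjamini-Hochberg adjustment over all genes tested).

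On the RPKM scale, which is per transcript length, Cd48, Cd34 and Kit had the 3 highest means of the 9 genes in each of the 4 groups, followed by Ly6a. In DP cells Cd48 had a mean of 65.2 RPKM and Cd34 of 46.2 RPKM, with ranges that overlapped. Kit, at 18.8 to 32.1 RPKM, lay below the lowest DP value of Cd34, 38.6 RPKM, and the highest Ly6a value, 18.3 RPKM, lay just below the lowest Kit value. Ly6a and Esam overlapped, at 5.61 to 18.3 and 5.03 to 10.0 RPKM. Tek, Flt3, Procr and Slamf1 had means of 1.37 to 1.67 RPKM with overlapping ranges, all below those of Esam. The order changed little in SP cells, where Procr had the lowest mean, 0.489 RPKM. In imatinib-treated cells Cd34 had a higher mean than Cd48, 52.3 against 41.9 RPKM in IMDP and 57.5 against 44.4 RPKM in IMSP cells, with ranges that overlapped.

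**Figure D1:**
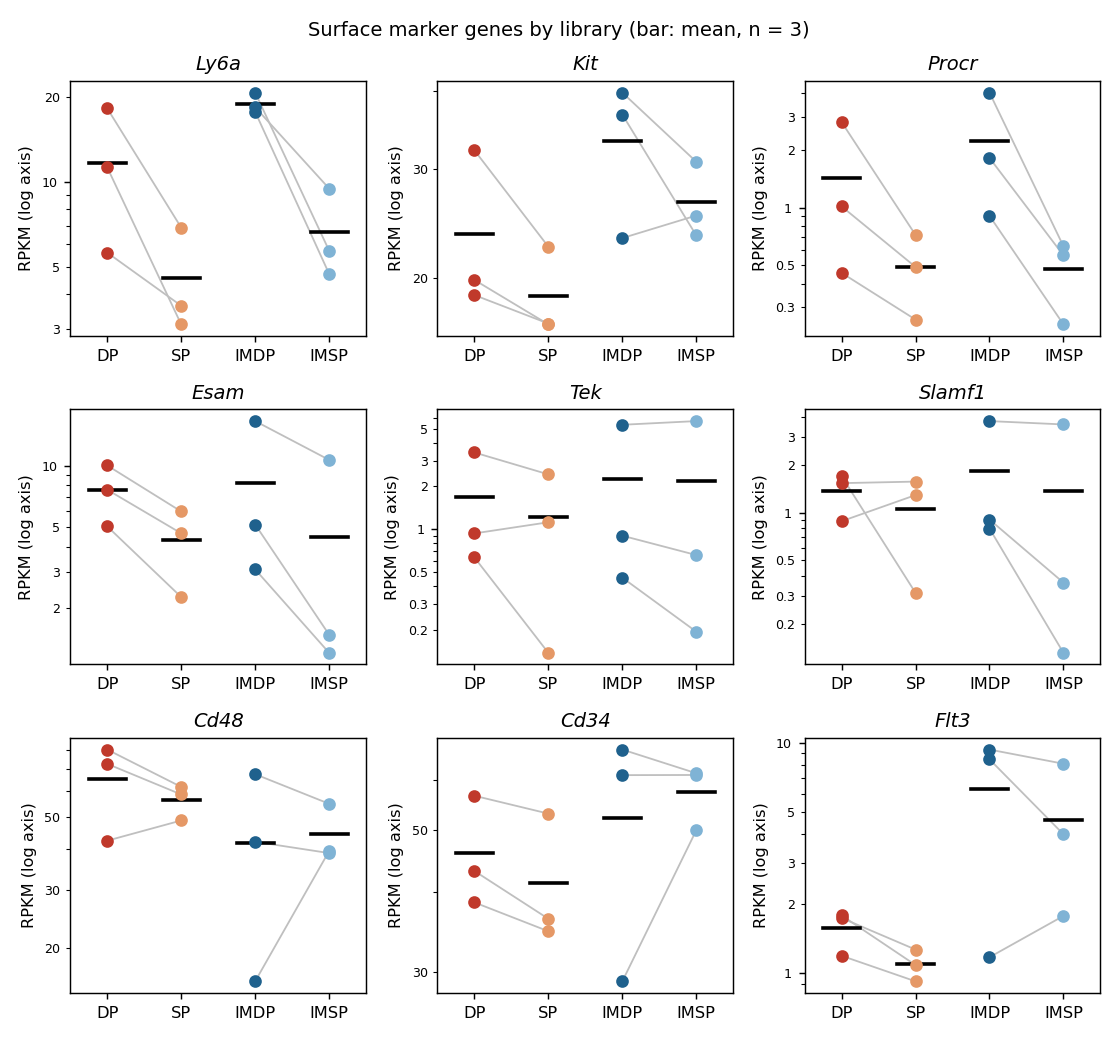
RPKM of the 9 surface marker genes (log axis, a different range in each panel) in the 12 libraries by group, where black bars are means of 3 libraries and grey lines join libraries with neighbouring library numbers. Ly6a and Procr of IMDP cells lay above all IMSP libraries, and Flt3 was above 4 RPKM in 4 of the 6 imatinib libraries and below 2 RPKM in all others.

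The first question was whether the quiescent, G0M+ cells differed from G0M- cells in these genes. Ly6a, the Sca-1 antigen, was higher in G0M+ cells although all libraries had been gated on its protein. It was at 11.3, 5.61 and 18.3 RPKM in the DP libraries and at 6.89, 3.12 and 3.63 RPKM in the SP libraries. It was at 17.8, 18.4 and 20.8 RPKM in the IMDP libraries and at 4.71, 9.48 and 5.70 RPKM in the IMSP libraries. Every IMDP library lay above every IMSP library by a wide gap, whereas 1 DP library lay below the highest SP library. The difference between G0M+ and G0M-, averaged over treatments, was 1.42 (SE 0.28, adjusted p = 0.00544, limma), with 1.28 (SE 0.40, adjusted p = 0.171) for DP against SP and 1.56 (SE 0.40, adjusted p = 0.0170) for IMDP against IMSP. The IMDP against IMSP call was lost without the second IMDP library (adjusted p = 0.0524, limma, where 11.7% of all genes were called), the third IMDP library (0.0526) or the first IMSP library (0.0780), with differences of 1.35 to 1.58. The DP against SP difference passed without the second DP library, at 1.72 (adjusted p = 0.0464, limma).

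Procr, the endothelial protein C receptor EPCR, was a gene of few reads with the same direction. It was at 0.456, 1.02 and 2.82 RPKM in the DP libraries and at 0.720, 0.259 and 0.489 RPKM in the SP libraries. It was at 1.83, 4.02 and 0.907 RPKM in the IMDP libraries and at 0.562, 0.628 and 0.244 RPKM in the IMSP libraries. IMDP and IMSP libraries did not overlap, and the first DP library lay within the SP range. The averaged difference was 1.50 (SE 0.46, adjusted p = 0.0330, limma), with 1.13 (SE 0.65, adjusted p = 0.486) for DP against SP and 1.86 (SE 0.65, adjusted p = 0.0534) for IMDP against IMSP. The averaged call rested on small margins: it was lost with no filter on low values (adjusted p = 0.0565, where 13.8% of all genes were called), with limma-voom on the recovered reads (0.0712), and without any 1 of 6 libraries, the second and the third of DP, the second of SP, the second of IMDP and the first and the third of IMSP (0.0582 to 0.0835). The difference stayed between 1.18 and 1.56 without these libraries. Procr reached 1 RPKM in 4 of the 6 G0M+ and 0 of the 6 G0M- libraries, so it passed the filter only through the group where it was high, which ties its call to the filter.

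Of the 9 genes, 2 were called in the averaged population comparison, Ly6a and Procr, both higher in G0M+ cells. Procr passed the filter only through the G0M+ libraries. Of the 8 genes that would have passed in the G0M- libraries alone, 1 was called, Ly6a, where 26.3% of all genes tested were called and 5.32% were called as higher. In IMDP against IMSP, 1 of the 9 was called, against 25.6% of all genes, 2.37% of all genes as higher. In DP against SP, limma called 0 of the 9 and limma-voom on the recovered reads also 0, with 1 gene, Ly6a, at an unadjusted p under 0.05, where 2.26% of all genes were called and 0.288% as higher. The median difference of the 9 genes was 0.52 in the averaged comparison, where the median of all genes tested was -0.13. IMDP lay above IMSP in all libraries for 2 of the 9 genes, Ly6a and Procr, and for 6.21% of all genes. DP lay above SP in all libraries for none of the 9, and for 9.68% of all genes.

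Esam, an adhesion molecule of endothelial junctions that HSCs also carry, had the same direction within library pairs but a wide spread between them. It was at 5.03, 7.62 and 10.0 RPKM in the DP libraries and at 5.95, 2.26 and 4.65 RPKM in the SP libraries. It was at 5.14, 16.6 and 3.09 RPKM in the IMDP libraries and at 1.47, 10.7 and 1.20 RPKM in the IMSP libraries. The groups overlapped in both treatments. Under vehicle the first DP library lay below the first SP library, and under imatinib the second library of each group was high. The averaged difference was 1.04 (SE 0.54, adjusted p = 0.166, limma). Without the second IMSP library it was 1.52 (SE 0.40, adjusted p = 0.0192), where 29.0% of all genes were called, and IMDP against IMSP was then 2.19 (SE 0.60, adjusted p = 0.0263), where 25.3% were called. Without that library Slamf1 also passed in IMDP against IMSP, at 2.21 (SE 0.73, adjusted p = 0.0469, limma).

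The labels number the libraries from 1 to 12, imatinib from 1 to 6 and vehicle from 7 to 12, and each pair of neighbouring numbers (1 and 2, 3 and 4, and so on) holds 1 G0M+ and 1 G0M- library of the same treatment. Over all genes tested, the deviations of such neighbours from their group means correlated at 0.43 to 0.65 in the 6 pairs. What the number stands for is not given in the sources used here. The G0M+ library was the higher of its pair in all 6 pairs for Ly6a, by 0.61 to 1.89 on the log2 scale, for Procr, by 0.63 to 2.50, and for Esam, by 0.63 to 1.73. This held for 11.3% of all genes tested, and 24.9% were lower in all 6 pairs. Kit and Flt3 were higher in 5 of 6 pairs, and Slamf1, Cd48, Cd34 and Tek in 4 of 6.

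With the pair of library numbers as a block, the averaged population difference was called for 4 of the 9 genes, where 46.9% of all genes were called. They were Ly6a (adjusted p = 0.000293, limma), Esam (adjusted p = 0.000524), Procr (adjusted p = 0.00112) and Kit (0.30, SE 0.10, adjusted p = 0.0390), against 2 without the block. In DP against SP the same block called Ly6a (adjusted p = 0.0136, limma) and Esam (0.85, SE 0.20, adjusted p = 0.0286), where 9.73% of all genes were called. In IMDP against IMSP it called Ly6a (adjusted p = 0.00113, limma), Esam (adjusted p = 0.00140) and Procr (adjusted p = 0.00225), where 44.1% of all genes were called. Procr passed the filter only through the G0M+ libraries, which ties its calls with this block to the filter too.

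**Figure D2:**
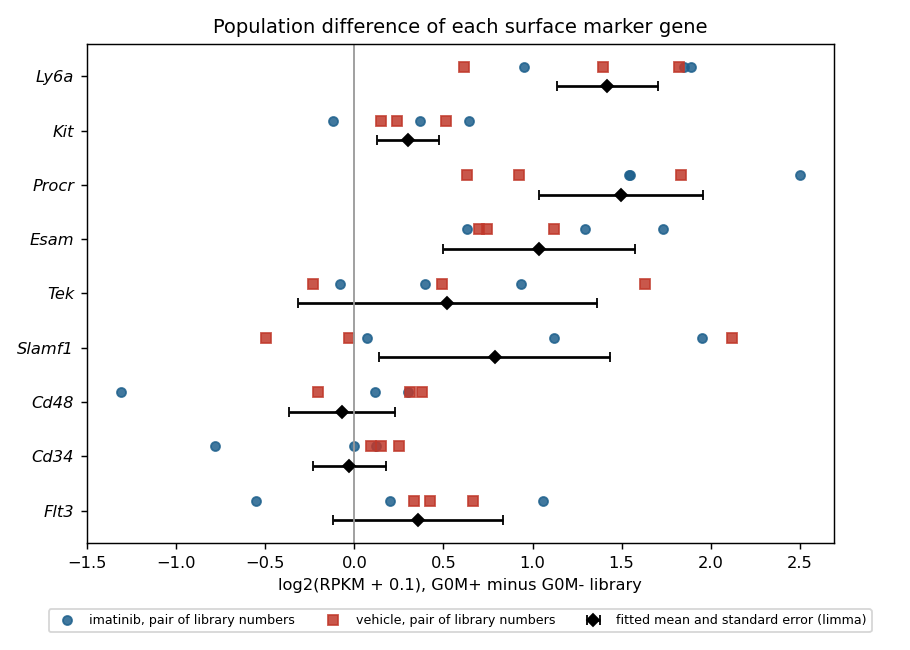
Difference in log2(RPKM + 0.1) between the G0M+ and the G0M- library of each pair of neighbouring library numbers (circles imatinib, squares vehicle) for the 9 genes, and the fitted mean over treatments with its standard error (diamonds, limma without a block). All 6 pairs were above 0 for Ly6a, Procr and Esam, and pairs lay on both sides of 0 for the other 6 genes.

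Kit, the receptor of stem cell factor, differed little between populations. It was at 19.8, 18.8 and 32.1 RPKM in the DP and at 22.4, 16.8 and 16.9 RPKM in the SP libraries. It was at 39.8, 23.2 and 36.7 RPKM in the IMDP and at 30.8, 25.2 and 23.4 RPKM in the IMSP libraries. The groups overlapped in both treatments, and the averaged difference was 0.30 (SE 0.17, adjusted p = 0.209, limma). It passed with the reads on listed features as denominator (0.49, adjusted p = 0.0474, where 23.7% of all genes were called) and with limma-voom (0.49, adjusted p = 0.0423, where 24.8% were called).

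In the fit of all 12 libraries, the SLAM pair that separates HSCs from progenitors did not differ beyond the spread between libraries. Slamf1 was at 1.69, 0.882 and 1.53 RPKM in the DP and at 1.57, 0.313 and 1.29 RPKM in the SP libraries. It was at 0.904, 3.76 and 0.794 RPKM in the IMDP and at 0.362, 3.58 and 0.131 RPKM in the IMSP libraries. The second library of each imatinib group was the highest by far, and the averaged difference was 0.79 (SE 0.65, adjusted p = 0.378, limma). Cd48, a ligand of CD2 and CD244 that marks progenitors, was at 72.7, 80.4 and 42.4 RPKM in the DP and at 48.9, 58.7 and 61.9 RPKM in the SP libraries. It was at 67.6, 15.8 and 42.1 RPKM in the IMDP and at 55.0, 39.5 and 38.9 RPKM in the IMSP libraries. The groups overlapped, the second IMDP library was the lowest of the 12, and the averaged difference was -0.07 (SE 0.30, adjusted p = 0.879, limma).

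Cd34, a sialomucin of progenitors and endothelium, was at 43.2, 56.7 and 38.6 RPKM in the DP and at 34.8, 36.4 and 53.1 RPKM in the SP libraries. It was at 66.9, 29.0 and 61.0 RPKM in the IMDP and at 61.4, 50.0 and 61.1 RPKM in the IMSP libraries, with an averaged difference of -0.03 (SE 0.20, adjusted p = 0.930, limma). Again the second IMDP library was the lowest of the 12 and the groups overlapped. Of the exon bases of Cd34, 2.03% overlap Gm16897 on the opposite strand, from which reads of a kit that does not mark strand cannot be told apart. The median of all genes was itself -0.13 in this comparison, and with each library scaled to the same median the differences of Cd48 and Cd34 turned to 0.09 and 0.13, both short of the threshold.

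Tek, the receptor of the angiopoietins, had the widest range of the 9 genes. It was at 0.637, 0.935 and 3.43 RPKM in the DP and at 2.41, 0.138 and 1.12 RPKM in the SP libraries. It was at 0.460, 5.35 and 0.902 RPKM in the IMDP and at 0.193, 5.67 and 0.661 RPKM in the IMSP libraries. Its highest value was 41.2 times its lowest, the groups overlapped throughout, and the averaged difference was 0.52 (SE 0.84, adjusted p = 0.663, limma).

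The second question was what imatinib changed. Flt3, the receptor of FLT3 ligand on multipotent progenitors, had the largest difference of the 9 genes between the treatments. It was at 1.74, 1.19 and 1.78 RPKM in the DP and at 1.09, 1.27 and 0.924 RPKM in the SP libraries. It was at 8.47, 1.17 and 9.33 RPKM in the IMDP and at 4.01, 1.77 and 8.10 RPKM in the IMSP libraries. In both imatinib groups the second library lay near the vehicle level and the other 2 well above it, so that IMDP overlapped DP while every IMSP library lay above every SP library. Averaged over populations the difference was 1.63 (SE 0.48, adjusted p = 0.113, limma), with 1.51 (SE 0.68, adjusted p = 0.235) for IMDP against DP and 1.75 (SE 0.68, adjusted p = 0.516) for IMSP against SP. Between populations Flt3 did not differ beyond the spread (0.36, SE 0.48, adjusted p = 0.597, limma).

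The second libraries of the imatinib groups are library numbers 4 (IMDP) and 3 (IMSP). In an alternative chosen after the values were seen, without both of these libraries, the averaged imatinib difference of Flt3 was 2.37 (SE 0.21, adjusted p = 0.00130, limma), that of IMDP against DP 2.45 (SE 0.29, adjusted p = 0.0129) and that of IMSP against SP 2.29 (SE 0.29, adjusted p = 0.0237). Of all genes, 3.66%, 0.328% and 0.0894% were called in these comparisons without the pair. Without the second IMDP library alone the averaged difference was 2.10 (SE 0.31, adjusted p = 0.0163, limma), where 1.06% of all genes were called. Imatinib libraries carry the numbers 1 to 6 and vehicle libraries 7 to 12, so treatment and whatever the number stands for cannot be told apart.

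None of the 9 genes was called for imatinib in the averaged comparison by limma or by limma-voom, where 0.854% of all genes were called by limma. Flt3, Kit and Ly6a were at an unadjusted p under 0.05, Kit with a difference of 0.50 (SE 0.17, adjusted p = 0.162, limma) and Ly6a with 0.70 (SE 0.28, adjusted p = 0.227). Cd48 was lower in imatinib libraries by a difference of -0.59 (SE 0.30, adjusted p = 0.323, limma), short of the threshold. In IMDP against DP, limma and limma-voom called 0 of the 9, with 1 at an unadjusted p under 0.05, where 0.367% of all genes were called. In IMSP against SP they also called 0 of the 9, with 1 at an unadjusted p under 0.05, where 0 of the 10072 genes were called by limma and 845 had an unadjusted p under 0.05. Every IMSP library lay above every SP library for Kit and Flt3, and for 11.1% of all genes. No gene of the 9 had IMDP libraries wholly above or wholly below the DP libraries, which 4.58% and 19.0% of all genes had.

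The interaction, which asks whether the population difference changed with imatinib, was called by limma and by limma-voom for 0 of the 9 and for 0 of the genes tested. None of the 9 and 937 of all genes had an unadjusted p under 0.05 by limma. The largest interaction of the 9 genes was that of Procr, at 0.74 (SE 0.92, adjusted p = 0.799, limma).

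Several of the genes were high or low in the same library pairs. Slamf1, Esam and Tek had their 2 highest values in library numbers 3 and 4, which had the lowest Flt3 values of the imatinib libraries. Over the 12 libraries, Pearson's r of the log2 values was 0.92 for Slamf1 with Esam, 0.82 for Esam with Tek and 0.81 for Slamf1 with Tek. It was 0.75 for Kit with Flt3 and 0.75 for Ly6a with Procr, and -0.54 for Flt3 with Esam. These describe 12 libraries that share groups and pairs, with no test.

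**Figure D3:**
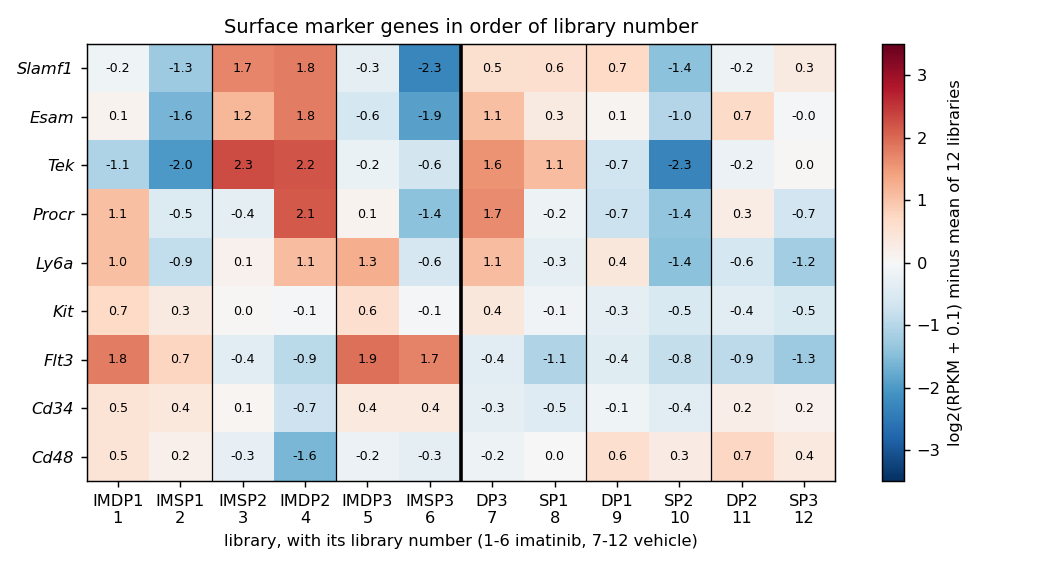
Log2(RPKM + 0.1) of each of the 9 genes minus its mean over the 12 libraries, by library in order of library number, with red above and blue below the mean and lines between pairs of neighbouring numbers. Libraries 3 and 4 were above the mean by 1.2 to 2.3 in Slamf1, Esam and Tek. In Flt3 they were below it, as were all vehicle libraries, and Cd48 and Cd34 were lowest in library 4.

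The ratios of Cd48 to Slamf1 and of Flt3 to Tek restate the values above per transcript length and are no separate evidence. Procr did not set both libraries apart, at 2.15 and -0.35 from its mean of the 12 libraries (log2 scale) in the second IMDP and the second IMSP library. Cd48 exceeded Slamf1 in RPKM in every library, 4.21 times in the second IMDP library and 11.0 times in the second IMSP library. The other 10 libraries ranged from 27.7 to 296 times. Flt3 exceeded Tek in 7 of 12 libraries, by 10.4 to 20.7 times in the 4 imatinib libraries other than these, whereas the ratio was 0.220 in the second IMDP and 0.313 in the second IMSP library. In the vehicle libraries the ratio ran from 0.450 to 9.22, with DP and SP libraries on both sides of 1.

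**Figure D4:**
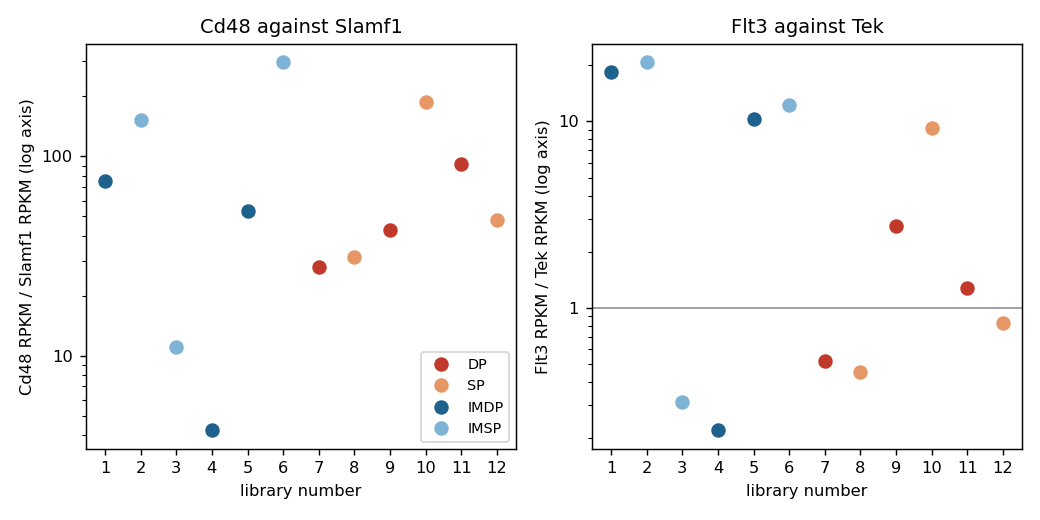
Ratio of Cd48 to Slamf1 RPKM (left) and of Flt3 to Tek RPKM (right), both on log axes, by library number, with points coloured by group and a line where Flt3 equals Tek. Libraries 3 and 4 had the lowest ratios in both panels, 11.0 and 4.21 on the left and 0.313 and 0.220 on the right.

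Other genes were high in these libraries too. Vwf, a gene of megakaryocytes, endothelium and platelet-biased HSCs, was at 24.1 and 17.7 RPKM in the second IMDP and IMSP libraries against 0.251 to 6.96 RPKM in the other 10. The summed RPKM of the 8 markers of megakaryocytes and platelets was 95.0 and 41.1 in them and 7.28 to 20.7 in the other imatinib libraries, but the highest sum, 124, was in the first DP library. The summed RPKM of the 10 endothelial markers was highest in them, at 72.2 and 54.9, but this list includes Vwf, and the sum was not taken without it. Cdh5, the endothelial cadherin, was at 0 in 7 libraries and at most 0.0832 RPKM in the others. The part of the megakaryocyte and endothelial markers in the values of Slamf1, Esam and Tek was not tested.

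Markers of other cell types also moved with the populations. The 10 proliferation markers summed to 57.2 to 134 RPKM in DP and 35.0 to 71.1 RPKM in IMDP libraries against 298 to 311 RPKM in SP and 288 to 379 RPKM in IMSP libraries. All 10 were called lower in G0M+ cells by limma, where 21% of all genes were. The 10 mast cell and basophil markers summed to 76.3 to 329 RPKM in DP and 14.9 to 194 RPKM in IMDP against 10.5 to 23.0 RPKM in SP and 7.92 to 24.4 RPKM in IMSP libraries. Of the 7 tested, 3 (Cpa3, Mcpt8 and Hdc) would have passed the filter in the G0M- libraries alone. Mcpt8 was called higher among them, by 2.04 (SE 0.55, limma), where 5.32% of all genes were called higher. The other 4, which include Cma1 and Prss34, passed through the G0M+ libraries, so no count of calls is given over the list. Kit is also a gene of mast cells. The 8 macrophage markers summed to 5.72 to 16.5 RPKM in DP and 10.0 to 13.7 RPKM in IMDP against 0.862 to 1.88 RPKM in SP and 0.477 to 2.63 RPKM in IMSP libraries. All 4 tested passed the filter only with the G0M+ libraries, so their calls are not counted. In SP and IMSP libraries 5 of the 10 mast cell markers and at least 4 of the 8 macrophage markers were at 0.

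In the averaged population comparison 21% of all genes were called lower and 5.32% higher in G0M+ cells, the shares to set beside the counts that follow. Of the remaining lists, 3 of 7 neutrophil and monocyte markers tested were lower in G0M+ cells, with sums of 75.3 to 1493 RPKM in DP, 401 to 2737 RPKM in SP, 80.5 to 309 RPKM in IMDP and 534 to 2336 RPKM in IMSP libraries. Of the 7 erythroid markers tested, 4 would have passed the filter in the G0M- libraries alone, and 1 of these, Hbb-bt, was higher. The erythroid sums were 208 to 268 RPKM in DP, 55.1 to 148 RPKM in SP, 58.4 to 484 RPKM in IMDP and 10.7 to 72.9 RPKM in IMSP libraries. Of the 6 endothelial markers tested, 4 would have passed in the G0M- libraries alone, and 1 of these, Egfl7, was higher. Robo4, also higher, reached 1 RPKM in 2 of the 6 G0M- libraries and passed only with the G0M+ libraries. Of the 6 megakaryocyte markers tested, 3 would have passed in the G0M- libraries alone, and none of these was called. Ppbp was higher but reached 1 RPKM in 0 G0M- libraries, so its call is not counted. The 10 lymphocyte markers summed to at most 5.40 RPKM in any library, and 0 of the 1 tested was called by limma. The part of these markers in the differences of Ly6a, Procr and Esam was not tested.

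By a fixed rule, the genes most like each called member were the 3 with the highest Pearson's r over the 12 libraries. For Ly6a they were Il18 (r = 0.95), Trim34a (r = 0.94) and Bcl11a (r = 0.94), and for Procr they were Map4k2 (r = 0.95), Syne2 (r = 0.94) and Gimap6 (r = 0.93). Bcl11a, a transcription factor of progenitors and lymphoid cells, was at 8.48 RPKM ± 0.606 in IMDP and 5.40 RPKM ± 1.96 in IMSP cells (SD, n = 3). Gimap6 was at 23.7 RPKM ± 7.63 in IMDP and 7.50 RPKM ± 2.17 in IMSP cells (SD, n = 3).

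The ligands, partners and signal components of these receptors were taken as lists and not for how they moved. Of 13 ligands and counter-receptors, 9 were tested, and 8 of these would have passed the filter in the G0M- libraries alone. Of these 8, F2r was higher and Angpt2 lower in G0M+ cells in the averaged comparison, where 5.32% of all genes were higher and 21% lower. Flt3l, the ligand of FLT3, was at 2.58, 2.14 and 1.86 RPKM in the DP and at 0.996, 0.604 and 1.24 RPKM in the SP libraries. It was at 1.63, 2.72 and 2.45 RPKM in the IMDP and at 0.153, 1.75 and 0.360 RPKM in the IMSP libraries. The DP libraries lay above the SP libraries, IMDP and IMSP overlapped, and the averaged difference was 1.56 (SE 0.40, adjusted p = 0.0166, limma), with 1.95 (SE 0.57, adjusted p = 0.0284) for IMDP against IMSP. It reached 1 RPKM in all 6 G0M+ and in 2 G0M- libraries, so it passed the filter only with the G0M+ libraries and is not counted above. F2r, the thrombin receptor PAR1 through which activated protein C bound to EPCR can signal, was at 31.8 RPKM ± 0.948 in DP and 17.0 RPKM ± 7.19 in SP, and at 20.4 RPKM ± 4.20 in IMDP and 10.8 RPKM ± 5.98 in IMSP cells (SD, n = 3), a difference of 1.03 (SE 0.29, adjusted p = 0.0230, limma). Angpt2, a ligand of TIE2, was lower in G0M+ cells by a difference of -0.50 (SE 0.16, adjusted p = 0.0405, limma). Kitl, the ligand of Kit, was at 0 to 0.0586 RPKM in the 12 libraries.

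Of 26 partners and family members of the receptors, 10 were tested and 1 was called in the averaged population comparison, against 26.3% of all genes. Cd84, a SLAM family receptor, was at 2.37 RPKM ± 0.931 in DP and 1.40 RPKM ± 0.511 in SP, and at 3.47 RPKM ± 0.168 in IMDP and 2.13 RPKM ± 0.260 in IMSP cells (SD, n = 3), a difference of 0.70 (SE 0.21, adjusted p = 0.0319, limma). Tie1, the partner of TIE2, was at 21.3 and 14.4 RPKM in the second IMDP and IMSP libraries and at 1.93 to 14.9 RPKM in the other 10.

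Of 18 signal components next to Kit, FLT3 and TIE2, 16 were tested, and 0 were higher and 2 lower in G0M+ cells, against 5.32% and 21% of all genes. The adaptor Shc1 had a difference of -0.55 (SE 0.11, adjusted p = 0.00438, limma) and the phosphatase Ptpn6 of -0.24 (SE 0.08, adjusted p = 0.0465). In IMDP against IMSP 4 of the 16 were lower, near the 23.3% of all genes: Shc1 (-0.63, adjusted p = 0.0126, limma), Lyn (-0.53, adjusted p = 0.0240), Ptpn6 (-0.41, adjusted p = 0.0231) and Ptpn11 (-0.47, adjusted p = 0.0346). The median of all genes tested was itself -0.25 there and -0.13 in the averaged comparison. Reads on listed features made up 25.2 to 30.2% of the total in IMDP and 31.7 to 36.1% in IMSP libraries. The part of this shift in these differences was not tested. Under imatinib 1 of the 16 was called, against 0.854% of all genes: Vegfa, a growth factor of endothelium, which was at 18.2 RPKM ± 4.53 in DP, 11.0 RPKM ± 2.60 in SP, 4.86 RPKM ± 3.86 in IMDP and 4.43 RPKM ± 1.18 in IMSP cells (SD, n = 3), a difference of -1.75 (SE 0.34, adjusted p = 0.0406, limma).

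Of 30 other surface antigens by which stem and progenitor cells are sorted, 27 were tested, and 23 of these would have passed the filter in the G0M- libraries alone. Of these 23, Eng and Cd82 were higher and 0 lower in G0M+ cells, against 5.32% and 21% of all genes. Robo4, a receptor of endothelium and HSCs, was at 0.763, 2.00 and 3.48 RPKM in the DP and at 1.17, 0.0734 and 0.851 RPKM in the SP libraries. It was at 3.35, 3.10 and 1.59 RPKM in the IMDP and at 0.779, 1.14 and 0.295 RPKM in the IMSP libraries. IMDP and IMSP did not overlap, and the averaged difference was 1.73 (SE 0.52, adjusted p = 0.0316, limma). It reached 1 RPKM in 5 G0M+ and 2 G0M- libraries, so it passed the filter only with the G0M+ libraries and is not counted above. Eng, the TGF-beta coreceptor endoglin, differed by 0.63 (SE 0.21, adjusted p = 0.0449, limma) and the tetraspanin Cd82 by 0.42 (SE 0.13, adjusted p = 0.0309). In IMDP against IMSP 1 of the 27 was lower, against 23.3% of all genes, the Fc receptor Fcgr2b (-2.03, SE 0.63, adjusted p = 0.0355, limma). Under imatinib 1 of the 27 was lower, against 0.606% of all genes, Thy1, which was at 9.06 RPKM ± 2.81 in DP, 9.24 RPKM ± 3.21 in SP, 3.08 RPKM ± 0.798 in IMDP and 3.80 RPKM ± 2.72 in IMSP cells (SD, n = 3), a difference of -1.47 (SE 0.30, adjusted p = 0.0490, limma).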

How the data were processed

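RNA was measured in 12 libraries of 100 sorted cells, 3 for each of DP, SP, IMDP and IMSP, grouped by the sample labels. The authors deposited RPKM per feature, mapped to GRCm38 (mm10). The methods name CLC Genomics Workbench and the reporting summary names HISAT2 and featureCounts. The submitters' notes name edgeR, whose test needs counts, so limma was used. Each file listed 48737 features. Numbered copies of a gene were summed, giving 46102 genes, and no member had such a copy. The number of per-sample columns left unused was 0.

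The 10072 genes that reached 1 RPKM in 3 or more libraries entered a fit of 4 group means to log2(RPKM + 0.1) in limma 3.58.1 (R 4.3.3), with variance trended on expression. G0M+ was compared with G0M- within each treatment, imatinib with vehicle within each population, each also as a mean of its pair of comparisons, and the interaction was tested. Calls needed a Benjamini-Hochberg adjusted p of 0.05. Since log2(RPKM + 0.1) understates changes of low genes, so do its differences. Reads were recovered from the RPKM steps (17732 of 17735 features above 0 gave whole reads in every library, within 0.002 reads and a relative rounding error) and were used for depth and for limma-voom. PCR copies are counted as reads, and precision at low values is limited by the reads. The fit and the recovery were tested on simulated data.

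Named genes were the members, Cd27 and Mki67, list genes past the threshold, and for each called member the 3 genes with the highest Pearson's r. Vwf, Tie1, Cpa3, Mcpt8, Hdc, Cma1, Prss34, Ppbp, Kitl, Cdh5, Ly6c1, Ly6c2 and Ly6i were named after their values were seen. The members and lists were chosen with earlier results of these data known. The numbers in the sample titles paired IMDP with IMSP (same-numbered deviations correlated at 0.43, 0.65 and 0.46) but not DP with SP (-0.19, -0.30 and -0.10). Alternatives changed the filter (0.5 RPKM in 2 libraries, or none), the pseudocount (1 or 0.5), the groups in the fit, the scaling, the block and the libraries, and used voom or kept numbered copies apart. Figures were drawn with Python 3.11.15 and matplotlib 3.10.9. Positions are from GENCODE M21 and promoters from RefSeq GRCm38.p6.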

Additional observations from a re-analysis of the deposited data

How the results depend on the processing

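Over the 63 log2 differences of the 9 genes in 7 comparisons, 1773 values were recomputed under alternatives: 1734 stayed on their side of the threshold, 22 gained a call and 17 lost it. No called value changed sign, and 122 values short of the threshold did. Of the 9 genes, the number called without 1 library at a time ran from 0 to 1 in DP against SP, 0 to 3 in IMDP against IMSP, 1 to 3 in the averaged population comparison and 0 to 1 in the averaged imatinib comparison (1 without the second IMDP library). Without 1 pair of neighbouring library numbers, chosen after the data were seen, it was 0 in IMDP against IMSP without 1 and 2 or 5 and 6, and 2 without 7 and 8 or 9 and 10. It was 1 in the population comparison without 1 and 2, 7 and 8 or 11 and 12. Without 3 and 4 it stayed at 2 with other members, since Procr was lost (adjusted p = 0.0744, limma) and Esam gained (1.18, adjusted p = 0.0216). It was 1 in each of the 3 imatinib comparisons without 3 and 4. With no filter 1 was called in the population comparison. In that comparison the genes called of all tested were 2321 of 16775 with no filter and 2648 of 10072 with it.

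The replicate block (the number in the sample title) called 0 of the 9 genes in DP against SP, 1 in IMDP against IMSP and 2 in the averaged population comparison, with Ly6a and Procr at adjusted p = 0.00830 and 0.0487 (limma), and changed no call of the 9 genes. The library number block called 2 in DP against SP, 3 in IMDP against IMSP and 4 in the averaged population comparison, and 980, 4446 and 4721 of all genes against 228, 2581 and 2648 without it. It could not be fitted for imatinib against vehicle, since no pair of neighbouring numbers holds both. Each omission leaves 2 libraries in the group it touches. The cause of these changes was not tested. Slamf1, Procr and Tek rested on 5 to 11 reads in their lowest libraries, which limits the precision of those values.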
